A study of Homo sapiens with 6 samples.

Results

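The genes described here carry the names of translation initiation factors (EIF) and elongation factors (EEF), chosen by name as 42 of the 57316 gene names in the count files. A few, such as EEF2K and EEF1E1, encode related proteins instead. The cells were THP-1, an established line from a monocytic leukaemia, which the phorbol ester PMA differentiates into macrophage-like cells. All cells had PMA at 100 ng/ml for 48 h, then 24 h with recombinant human CXCL10, an interferon-inducible chemokine, at 100 ng/ml, or 24 h with control solution. Polyadenylated RNA was sequenced from 3 CXCL10 libraries and 3 control libraries, each group numbered 1, 3 and 4. Whether the libraries came from separate cultures is not stated, so the p-values cover just the spread among these samples, and that spread may be technical. All libraries are of 1 cell line, and the replicates share its genotype.

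Initiation begins when eIF2 carries the initiator transfer RNA to the small ribosomal subunit, where eIF1, eIF3 and eIF5 help it to find the start codon. The eIF4 factors bind the cap of the mRNA, unwind its leader and bring it to that subunit. During elongation, eEF1A delivers each aminoacyl-transfer RNA, its exchange factors recharge it with GTP, and eEF2 moves the ribosome along. In macrophages these steps are known to be regulated through mTOR, through phosphorylation of eIF2 and through the eIF4E-binding proteins. Elongation factor mRNAs, like ribosomal protein mRNAs, are known for a 5′ terminal oligopyrimidine tract, called TOP, by which mTOR and LARP1 control their translation.

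The TOP letters can be read from annotated transcription starts, and are shown because they are the sequence feature that ties these factors to the ribosomal proteins. A start was counted when its first 5 bases were C followed by 4 bases that were each C or T, read on the gene's own strand only. RefSeq starts (GRCh38.p14) were matched by symbol for 35 of the 42 genes, and 9 of them, or 25.7%, had such a start. The same letters stood at a start of 5.14% of all 27305 genes in that table and of 74.6% of the 63 cytosolic ribosomal protein genes in it. Below, 10 bases before the start and 20 from it are printed 5′ to 3′, and capitals mark the unbroken run of C and T that begins at the start.
EEF1A1, minus strand, chr6:73521013-73521042: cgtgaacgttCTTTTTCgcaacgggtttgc
EEF1B2, plus strand, chr2:206159885-206159914: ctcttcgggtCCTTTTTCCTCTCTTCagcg
EEF2, minus strand, chr19:3985444-3985473: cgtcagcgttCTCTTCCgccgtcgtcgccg
EIF3D, minus strand, chr22:36529147-36529176: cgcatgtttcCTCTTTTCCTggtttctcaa
EIF3F, plus strand, chr11:7987327-7987356: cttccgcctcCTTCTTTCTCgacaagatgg
EIF3K, plus strand, chr19:38619178-38619207: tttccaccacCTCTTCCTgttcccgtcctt
EIF3M, plus strand, chr11:32583821-32583850: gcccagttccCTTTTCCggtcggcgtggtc
EIF4A2, plus strand, chr3:186783567-186783596: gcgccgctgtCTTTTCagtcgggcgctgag
EIF4B, plus strand, chr12:53006446-53006475: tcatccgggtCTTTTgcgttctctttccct
The longest run, of 16 bases, belonged to EEF1B2. These letters are a description of annotated starts. Which start was used in these cells was not measured.

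Most of the measured translation factor mRNAs had small log2 fold changes between CXCL10 and control cells, and none passed the test. Of 41 genes with enough reads to be tested, 0 passed edgeR's quasi-likelihood test after Benjamini-Hochberg adjustment over all genes (lowest adjusted p = 0.683), and 0.00% of the 16531 genes tested passed. The median log2 fold change was -0.05 over these 41 genes and 0.02 over all genes tested. The 95% interval stayed within -1 and 1 for 38 of the 41 genes, or 92.7%, and for 74.4% of all genes tested. With scaling by library size alone the members' median was 0.029 and that of all genes 0.10. Standard errors ran from 0.12 to 0.24 on the log2 scale, apart from 0.40 for EIF4A1. In bulk RNA, fewer cells of a type and less RNA per cell cannot be told apart.

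At an unadjusted p under 0.05, 4 genes were lower with CXCL10 (EEF1E1, EEF1B2, EIF3K and EIF6) and 2 were higher (EIF4A1 and EIF3L). These are 9.76% and 4.88% of the 41, where 4.65% and 2.50% of all genes tested were counted lower and higher. EIF4A1 and EIF3L share 48.6% and 51.8% of their exon length with other genes, and reads over 2 genes were left out. All 3 CXCL10 libraries lay below all 3 controls for 7 genes, or 17.1%, against 6.48% of all genes tested. They lay above the controls for 4 genes, or 9.76%, against 5.76%. Without control replicate 4, only EEF1E1 was counted lower and EIF4A1 higher, each 2.44% of the 41, against 1.59% and 2.20% of all genes tested. Without CXCL10 replicate 1, 11 were lower and 2 higher, where 7.01% and 5.27% of all genes tested were. Without CXCL10 replicate 3 the counts were 2 and 1, beside 1.95% and 1.77% of all genes. Without CXCL10 replicate 4 they were 1 and 0, beside 1.98% and 1.81%.

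**Figure D1:**
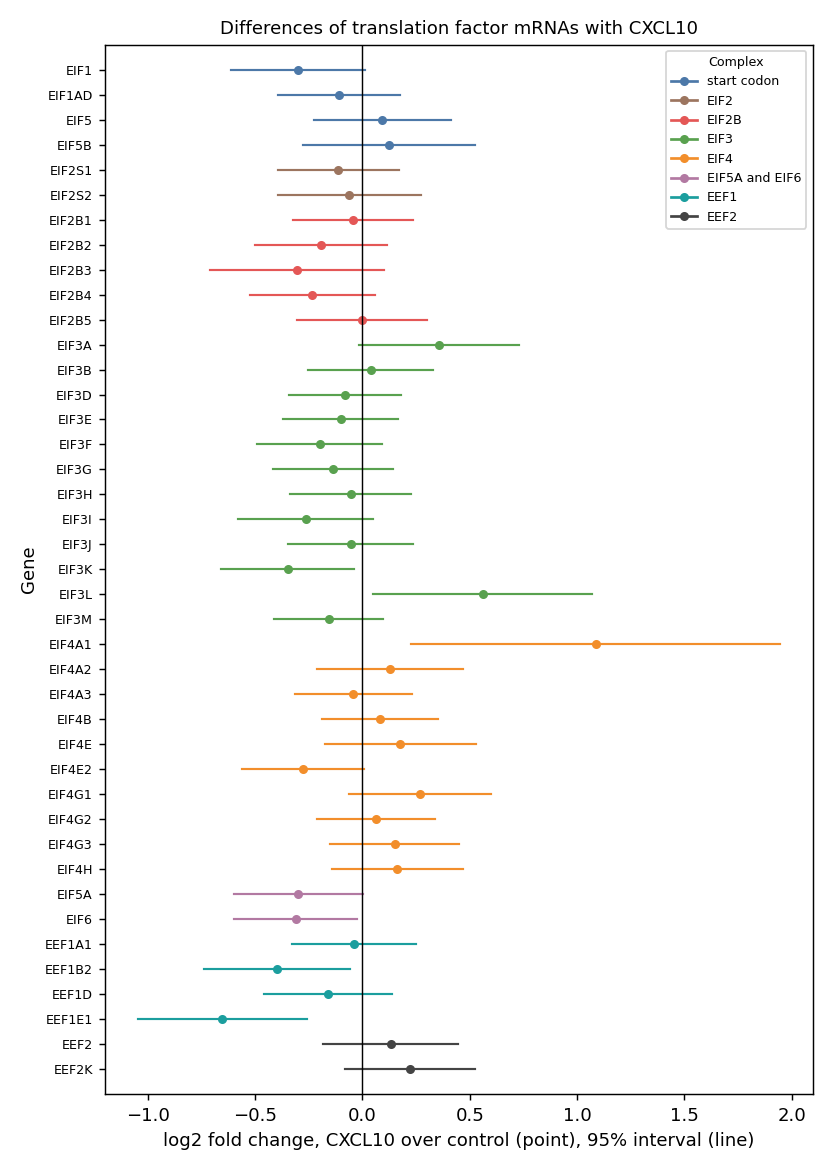
Log2 fold change of CXCL10 over control (points) with the 95% interval from edgeR (lines) for the 41 genes tested, coloured by complex. EEF1E1 at -0.65 lies farthest left, EIF4A1 at 1.09 farthest right, and most intervals cross 0.

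The libraries held 36888682, 41023583 and 34782380 reads with CXCL10 and 38879308, 37974154 and 36022874 reads in controls. Control replicate 4 stood apart from the other 5 libraries on the first principal component, which took 44.2% of the variance. It had reads for 21546 genes, against 23631 to 24807 in the other libraries. It was the highest library for 13 of the 41 factors and the lowest for 11, or 58.5% together, and was at an extreme for 55.1% of all genes tested. Of 7 monocyte and macrophage markers 6 were present in every library, from 6.13 CPM, that is reads scaled to library size, for the lowest LYZ value to 1601 CPM for the highest CSF1R value. CD68 had 0 to 5 reads, and 85.6% of its exon length lies under other genes, whose shared reads were not counted. No marker of T, B, epithelial, fibroblast or erythroid cells exceeded 2.32 CPM in any library.

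Counting by gene name also touched the factors themselves. EEF1G, the scaffold subunit of the eEF1 exchange complex (chromosome 11, 62559596 to 62574086, hg38), had 0 reads in all 6 libraries. A count of 0 allows up to 0.146 to 0.173 CPM per library, taking 3 fragments or 6 reads as the limit, for counting error only. These limits were scaled by all reads of a library, without the scaling factors used for the other CPM values. However, 99.7% of its exon length is shared with AP002990.1 on the same strand, and reads over both genes were left out, so this count does not measure the EEF1G mRNA. EIF4A1 (chromosome 17, 7572706 to 7579006) shares 48.6% of its exon length with AC016876.2, SENP3-EIF4A1 and SNORD10, and kept 11 to 53 reads per library. EIF3L shares 51.8%, mostly with AL022311.1. Of the 42 genes, 14 overlap no other gene's exons and 14 overlap others over more than 10% of their length.

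**Figure D2:**
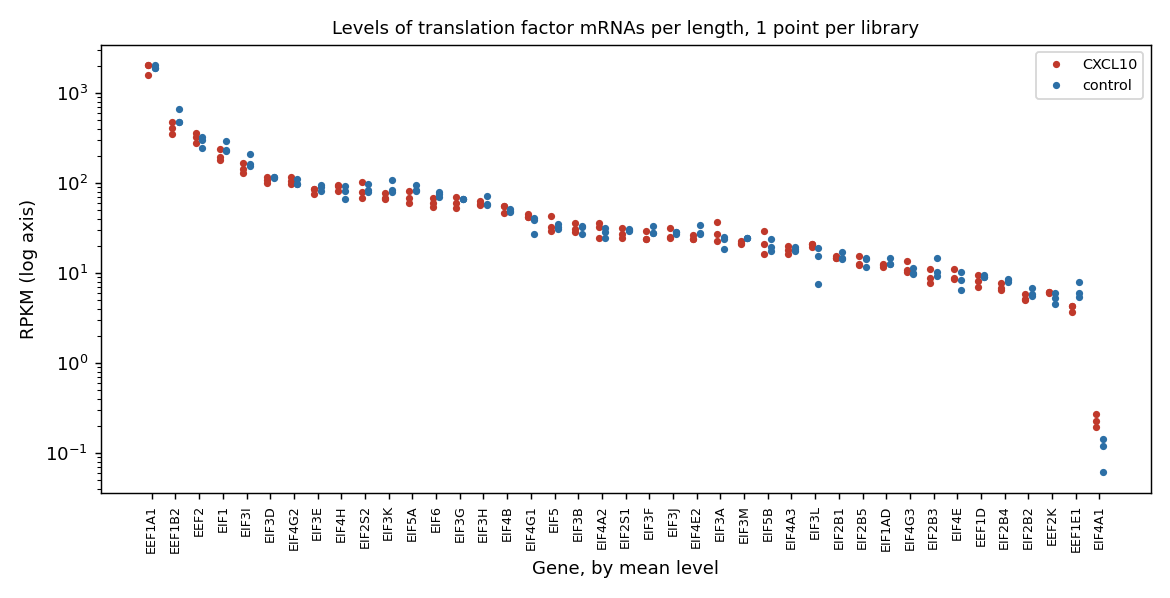
Level of each factor in RPKM, which scales reads by exon length and library size (log axis), with 1 point per library, CXCL10 in red and control in blue, ordered by the mean of the 6 libraries. EEF1A1 leads at 1899 RPKM and EIF4A1, whose few reads were not taken as its level, is last at 0.172 RPKM. The groups lie close together for most genes.

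Levels of different genes were compared per exon length, which in the files covers the exons of every annotated transcript of a gene, so that genes with long alternative exons appear low. Exon stretches shared with other genes also count in that length, although reads over 2 genes were left out. EEF1A1 was the most abundant factor at 1899 ± 173 RPKM (mean ± SD over 6 libraries). EEF1B2 followed at 472 ± 104 RPKM, EEF2 at 305 ± 40.1 RPKM and EIF1 at 228 ± 38.6 RPKM. The lowest, apart from EIF4A1 and EEF1G, was EEF1E1 at 5.29 ± 1.56 RPKM. EEF1A1 exceeded EEF1B2 in every library, while EEF1E1, EEF2K at 5.68 ± 0.669 RPKM and EIF2B2 at 5.70 ± 0.650 RPKM differed by less than their spread. Over the 41 genes, the median coefficient of variation of CPM across the 6 libraries was 12.5%, and over all genes tested it was 17.3%.

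The 4 genes grouped as start codon factors gave mixed values, although 2 of them, EIF5B and EIF1AD, are not known mainly for choosing that codon. EIF1, which keeps scanning ribosomes from starting at wrong codons, had 857, 659 and 707 CPM with CXCL10 and 826, 849 and 1059 CPM in controls. CXCL10 replicate 1 lay between the controls, so the groups overlapped. On the log2 scale it differed by -0.30 ± 0.15 (SE, adjusted p = 0.702 by edgeR), and -0.17 without control replicate 4. EIF5, which activates the GTPase of eIF2, had 246, 360 and 268 CPM with CXCL10 and 260, 272 and 288 CPM in controls. Its highest library was CXCL10 replicate 3 and its lowest CXCL10 replicate 1, and the log2 fold change was 0.09 ± 0.15. EIF5B, the GTPase that joins the ribosomal subunits, had 0.12 ± 0.19, and EIF1AD, which carries a domain like that of eIF1A, had -0.11 ± 0.13. Neither group of values was separate from the other for these 4 genes.

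The eIF2 subunits and their exchange factor eIF2B lay at or below 0. EIF2S1, the alpha subunit that stress kinases phosphorylate, had 130, 169 and 144 CPM with CXCL10 and 158, 157 and 163 CPM in controls. The controls were close together while the CXCL10 libraries spread to both sides of them, and the log2 difference was -0.11 ± 0.13 (SE, adjusted p = 0.867 by edgeR). EIF2S2, the beta subunit, had -0.06 ± 0.16. Per length, EIF2S2 stood at 84.5 ± 12.6 RPKM and EIF2S1 at 28.8 ± 2.68 RPKM, above all 5 eIF2B genes, which ran from 5.70 to 15.3 RPKM.

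Among the eIF2B genes, EIF2B4 was the member with the lowest p. It had 41.7, 34.3 and 36.6 CPM with CXCL10 and 42.5, 45.7 and 44.2 CPM in controls, with every CXCL10 library under every control. CXCL10 over control gave a log2 ratio of -0.23 ± 0.14 (adjusted p = 0.733 by edgeR). EIF2B5, the catalytic epsilon subunit, had 111, 89.2 and 91.2 CPM with CXCL10 and 104, 105 and 83.9 CPM in controls. Its groups overlapped, and its log2 fold change was -0.0018 ± 0.14, which was 0.07 with scaling by library size alone. EIF2B1, EIF2B2 and EIF2B3 had -0.04, -0.19 and -0.31, and that of EIF2B3 was -0.08 without control replicate 4. The median of the 5 genes was -0.19, and -0.09 without that library.

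**Figure D3:**
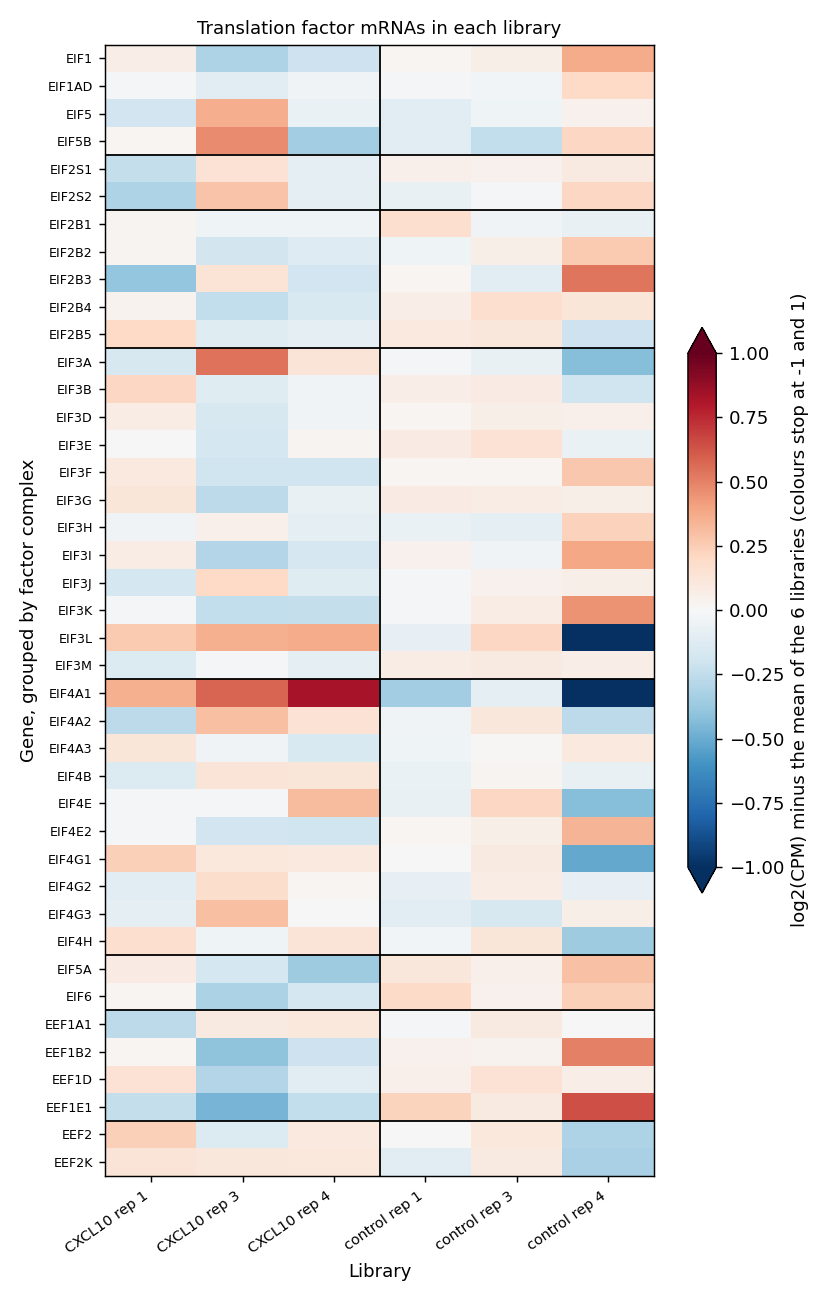
Log2 CPM of each tested factor minus its mean over the 6 libraries, with rows grouped by complex, the 3 CXCL10 libraries at left and the 3 controls at right. Control replicate 4 holds dark cells of either sign, among them EIF3L and EIF4A1 at the low end and EEF1E1 at the high end.

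The eIF3 complex, which binds the small subunit and helps recruit the mRNA, gave values on both sides of 0. Of its 12 measured genes 9 lay below 0, or 75.0%, against 46.0% of all genes tested, and 3 lay above. The median log2 fold change was -0.09. Its share of all reads was 0.310% ± 0.00712 with CXCL10 and 0.311% ± 0.00698 in controls (mean ± SD, n = 3 each). Per length the subunits ran from 17.3 RPKM for EIF3L to 161 RPKM for EIF3I. The EIF3L value may be too low, because 51.8% of its exon length is shared with other genes. EIF3E, a core subunit, had 510, 451 and 519 CPM with CXCL10 and 539, 563 and 487 CPM in controls. The groups overlapped, and the log2 difference was -0.10 ± 0.13 (SE, adjusted p = 0.875 by edgeR).

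EIF3K, a small subunit bound to EIF3L (chromosome 19, 38619082 to 38636955), had 219, 188 and 189 CPM with CXCL10 and 220, 234 and 304 CPM in controls. Every CXCL10 library lay under every control, but CXCL10 replicate 1 was only just under control replicate 1. The log2 difference was -0.35 ± 0.14 (adjusted p = 0.683 by edgeR), and -0.19 without control replicate 4. EIF3A, the largest scaffold subunit, differed the other way, with 159, 259 and 194 CPM with CXCL10 and 177, 169 and 132 CPM in controls. CXCL10 replicate 1 lay between the controls. The log2 fold change was 0.36 ± 0.17 (adjusted p = 0.702 by edgeR), with 0.16 when CXCL10 replicate 3 was left out and 0.24 when control replicate 4 was.

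EIF3L, which pairs with EIF3K in the complex (chromosome 22, 37848868 to 37889407), had 84.5, 90.2 and 91.0 CPM with CXCL10 and 66.4, 81.1 and 32.6 CPM in controls. The groups did not overlap, and control replicate 4 was far below the others. On the log2 scale it differed by 0.56 ± 0.24 (adjusted p = 0.683 by edgeR), and 0.27 without control replicate 4. With no filter on low counts its adjusted p was 0.0530, the lowest of 16 alternatives, which reached 0.999. EIF3C, a core subunit outside the 42 genes with the near-identical copy EIF3CL, had 15.9, 14.4 and 17.9 CPM with CXCL10 and 13.3, 14.4 and 4.13 CPM in controls, so that control replicate 4 alone stood far from the rest. EIF3B, EIF3D, EIF3F, EIF3G, EIF3H, EIF3I, EIF3J and EIF3M had log2 fold changes from -0.26 for EIF3I to 0.04 for EIF3B. Of these 8, only EIF3M separated the groups, with 163 ± 7.21 CPM with CXCL10 and 181 ± 1.34 CPM in controls (n = 3 each).

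For the eIF4 factors, 8 of 10 log2 fold changes were above 0, or 80.0%, against 54.0% of all genes tested. The median was 0.14, which was 0.04 without control replicate 4. After removal of each library's trend with gene length it was 0.05, and that of all genes 0.0051. The 8 include EIF4A1, whose few reads are not taken as its level. EIF4E, the cap-binding protein, had 122, 123 and 154 CPM with CXCL10 and 118, 143 and 92.3 CPM in controls. The groups overlapped, and the log2 difference was 0.18 ± 0.16 (SE, adjusted p = 0.829 by edgeR), and 0.03 without control replicate 4. EIF4E2, a cap-binding relative that represses translation, had 175, 155 and 155 CPM with CXCL10 and 180, 185 and 225 CPM in controls. Its CXCL10 libraries all lay below the controls, at -0.28 ± 0.13 on the log2 scale (adjusted p = 0.694 by edgeR), and -0.17 without control replicate 4.

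The scaffold gene EIF4G1 had 378, 345 and 342 CPM with CXCL10 and 319, 340 and 224 CPM in controls. The groups did not overlap, although CXCL10 replicate 4 and control replicate 3 were nearly equal. CXCL10 over control gave a log2 ratio of 0.27 ± 0.15 (adjusted p = 0.726 by edgeR), and 0.11 without control replicate 4. Its paralog EIF4G3 had 98.7, 130 and 105 CPM with CXCL10 and 97.1, 93.9 and 109 CPM in controls, with overlapping groups and 0.15 ± 0.14. EIF4G2, a related scaffold that cannot bind eIF4E, was the most abundant eIF4 gene per length at 105 ± 8.19 RPKM. EIF4A1 is left out of that order, because its few reads were not taken as its level. It had 826, 999 and 899 CPM with CXCL10 and 835, 935 and 836 CPM in controls. These values overlapped, and the log2 fold change was 0.06 ± 0.13.

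Of the helicase genes, EIF4A2 had 151, 223 and 200 CPM with CXCL10 and 177, 196 and 151 CPM in controls. Its groups overlapped and the log2 difference was 0.13 ± 0.16 (SE, adjusted p = 0.872 by edgeR), and 0.04 without control replicate 4. EIF4A1, its close paralog, had 39, 53 and 52 reads with CXCL10 and 25, 29 and 11 reads in controls. All CXCL10 libraries lay above the controls, and the log2 fold change was 1.09 ± 0.40 (adjusted p = 0.683 by edgeR), and 0.82 without control replicate 4. In view of the overlap given above, these few reads were not taken as its level. EIF4A3, the helicase of the exon junction complex, had -0.04 ± 0.13. Of the helicase cofactors, EIF4B had 283, 340 and 338 CPM with CXCL10 and 297, 316 and 295 CPM in controls, with overlapping groups and 0.08 ± 0.13, and EIF4H had 0.16 ± 0.14.

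EIF5A and EIF6 act on the large subunit, and both lay below 0. EIF5A, which carries the modified lysine hypusine and relieves stalled ribosomes, had 220, 184 and 163 CPM with CXCL10 and 226, 216 and 255 CPM in controls. The groups overlapped through CXCL10 replicate 1, and the log2 difference was -0.30 ± 0.14 (SE, adjusted p = 0.694 by edgeR). EIF6, which keeps the large subunit from joining too early (chromosome 20, 35278911 to 35284985), had 111, 87.3 and 96.6 CPM with CXCL10 and 124, 112 and 128 CPM in controls. These groups did not overlap, and the log2 fold change was -0.31 ± 0.13 (adjusted p = 0.683 by edgeR). After removal of each library's trend with gene length it was -0.16. Reads of EIF5A can also fit copies such as EIF5AL1, so its level is uncertain.

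Of the 6 tested genes with EEF names, 4 had log2 fold changes below 0 and 2 above. These are 66.7% and 33.3%, where 46.0% and 54.0% of all genes tested lay below and above. The 6 include the kinase gene EEF2K and the scaffold gene EEF1E1, which do not encode elongation factors themselves. EEF1A1 (chromosome 6, 73515750 to 73523797) had 8624, 11014 and 11138 CPM with CXCL10 and 10288, 11000 and 10307 CPM in controls. CXCL10 replicate 1 was the lowest library and CXCL10 replicate 4 the highest, and the log2 difference was -0.04 ± 0.13 (SE, adjusted p = 0.964 by edgeR). EEF2 (chromosome 19, 3976056 to 3985463) had 1434, 1105 and 1304 CPM with CXCL10 and 1218, 1306 and 982 CPM in controls, with overlapping groups and 0.13 ± 0.15 (adjusted p = 0.859 by edgeR), and 0.03 without control replicate 4. EEF2K, the kinase that inhibits eEF2, had 49.6, 48.9 and 48.8 CPM with CXCL10 and 41.97, 48.2 and 36.3 CPM in controls. Its groups did not overlap, though control replicate 3 came close, and its log2 fold change was 0.22 ± 0.14 (adjusted p = 0.754 by edgeR), and 0.13 without control replicate 4.

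Of the tested EEF1 genes other than EEF1A1, EEF1B2 and EEF1E1 had separate groups and EEF1D did not. EEF1B2, an exchange factor of eEF1A (chromosome 2, 206159585 to 206162928), had 899, 671 and 771 CPM with CXCL10 and 914, 911 and 1259 CPM in controls. CXCL10 replicate 1 was only just below the lowest control. The log2 difference was -0.40 ± 0.16 (adjusted p = 0.683 by edgeR), and -0.22 without control replicate 4. EEF1D, a second exchange subunit, had -0.16 ± 0.14 with CXCL10 replicate 1 the highest of the 6 libraries, and 34.0% of its exon length lies opposite other genes.

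EEF1E1, known as a scaffold of the aminoacyl-transfer RNA synthetase complex (chromosome 6, 8073360 to 8102559), had the lowest p of the 41 genes. It had 9.03, 7.72 and 9.0007 CPM with CXCL10 and 12.5, 11.4 and 16.7 CPM in controls, from 321 to 558 reads per library. The groups were separate, with control replicate 4 the highest. On the log2 scale it differed by -0.65 ± 0.18 with a 95% interval from -1.05 to -0.26, and it did not pass after adjustment (unadjusted p = 0.00320, adjusted p = 0.683 by edgeR). Without control replicate 4 it was -0.47. The unadjusted p stayed under 0.05 in all 16 alternatives, from 7.91e-04 to 0.0141, and the adjusted p ran from 0.105 to 0.999. EEF1E1 shares 18.8% of its exon length with the read-through gene EEF1E1-BLOC1S5.

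**Figure D4:**
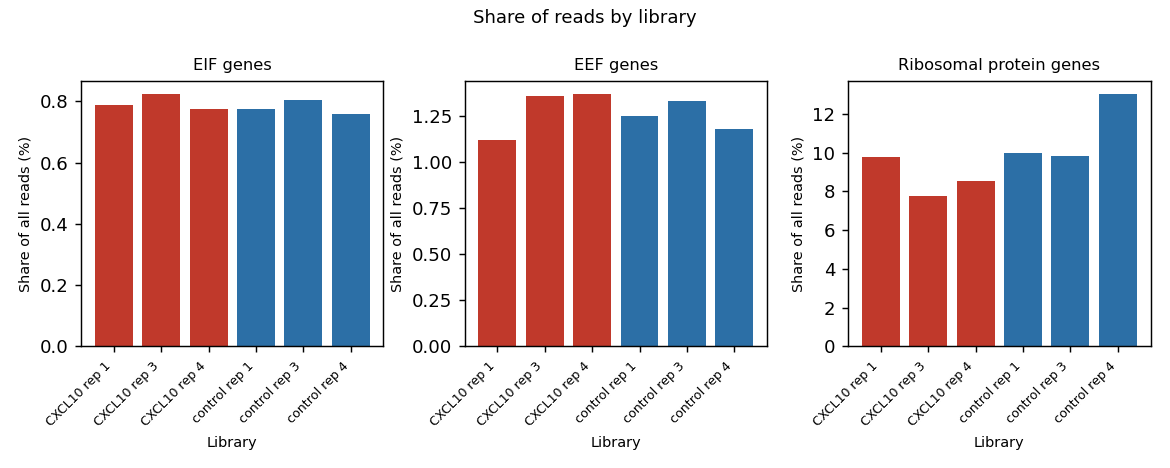
Share of all reads in each library (bars, axes from 0) for the EIF genes, the EEF genes and the cytosolic ribosomal protein genes, with CXCL10 in red and control in blue. Ribosomal protein reads reach 13.0% in control replicate 4, where EEF genes hold 1.18%, within the range of the other libraries.

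As a share of all reads, the 42 genes took 2.08% ± 0.151 with CXCL10 and 2.03% ± 0.0982 in controls (mean ± SD, n = 3 each), a difference within the spread between libraries. EEF genes took 1.12%, 1.36% and 1.37% with CXCL10 and 1.25%, 1.33% and 1.18% in controls. The 79 cytosolic ribosomal protein genes took 9.77%, 7.78% and 8.51% with CXCL10 and 10.0008%, 9.80% and 13.0% in controls. Control replicate 4 had the highest ribosomal protein share and the second lowest EEF share. All 79 ribosomal protein genes had a log2 fold change below 0, where 46.0% of all genes tested did. Their median was -0.44, and -0.25 without control replicate 4. Against this, the 9 factors with TOP letters at an annotated start ran from -0.40 for EEF1B2 to 0.13 for EEF2, with 6 below 0 and a median of -0.08. The 25 tested factors with an annotated start but without these letters had a median of -0.04. The difference between TOP factors and ribosomal proteins was not tested.

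Shorter genes lay lower with CXCL10 than longer ones. Of the 20 factors with an exon length under the median of 5436 bases, 16 were below 0 and the median log2 fold change was -0.12. Of the 21 at or above it, 10 were below 0 and the median was 0.04. Spearman's rho between length and log2 fold change was 0.51 over the 41 genes, which share the same libraries, and 0.32 over all genes tested. Without control replicate 4 it was 0.44 and 0.26. With the length trend of each library removed, the rho of the factors was 0.26 and the medians were -0.12 and -0.04, and EEF1B2 and EIF6 had -0.26 and -0.16. The part of length in these differences was not tested further.

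**Figure D5:**
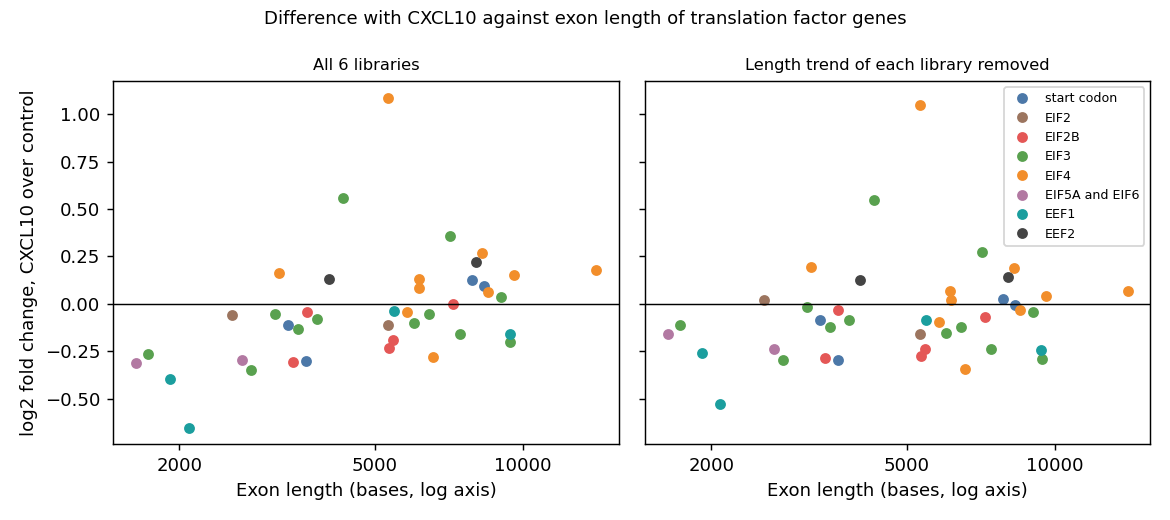
Log2 fold change of CXCL10 over control (vertical axis) against exon length in bases (horizontal log axis) for the 41 tested factors, coloured by complex, for all 6 libraries at left and with each library's length trend removed at right. The short genes EEF1E1, EEF1B2 and EIF6 lie at -0.65, -0.40 and -0.31 at left and at -0.53, -0.26 and -0.16 at right.

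Ratios of paralogs or partners within a library do not depend on the scaling between libraries. The ratio of EIF4E2 to EIF4E, per length, was 3.07, 2.71 and 2.16 with CXCL10 and 3.27, 2.77 and 5.23 in controls. The mean log2 ratio was lower with CXCL10 by a difference of -0.47 (exact two-sided permutation p = 0.2, adjusted p = 0.4 over 4 ratios), which was -0.20 without control replicate 4. EIF4G3 to EIF4G1 was 0.225, 0.323 and 0.263 with CXCL10 and 0.262, 0.237 and 0.418 in controls, a log2 difference of -0.15 (exact two-sided permutation p = 0.7, adjusted p = 0.7). EEF1A1 to EEF2 was 4.42, 7.32 and 6.27 with CXCL10 and 6.20, 6.19 and 7.71 in controls, a log2 difference of -0.18 (exact two-sided permutation p = 0.6, adjusted p = 0.7). EIF4A2 to EIF4A1 differed by -1.06 with separate groups (exact two-sided permutation p = 0.1, adjusted p = 0.4), and rests on the few EIF4A1 reads. The smallest p that 3 against 3 libraries can give is 0.1.

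Of the other genes of the pathway, 0 passed the adjusted test. Among 24 tested regulators, 18 lay above 0, or 75.0%, where 54.0% of all genes tested did, and the median log2 fold change was 0.08. With the length trend of each library removed, the median of the regulators was 0.014 and that of all genes 0.0051. An unadjusted p under 0.05 was found for 2 of the regulators, both lower, which is 8.33% against 4.65% of all genes tested. EIF4EBP1, which blocks eIF4E when unphosphorylated, had 110, 85.4 and 81.8 CPM with CXCL10 and 114, 104 and 163 CPM in controls. Its groups overlapped, at -0.46 ± 0.18 on the log2 scale (SE, adjusted p = 0.683 by edgeR), and -0.23 without control replicate 4. The other was RPS6, a ribosomal protein phosphorylated by S6 kinase, with -0.32 ± 0.14, and -0.18 without control replicate 4 (unadjusted p = 0.147 by edgeR). All CXCL10 libraries lay above the controls for 3 regulators, or 12.5%, and below them for 2, or 8.33%, where 5.76% and 6.48% of all genes tested did so. The 3 were MTOR at 0.18 ± 0.13, LARP1 at 0.22 ± 0.13 and EIF2AK1, the haem-regulated eIF2 kinase, at 0.21 ± 0.13. Without control replicate 4 they had 0.16, 0.14 and 0.11, and with the length trend removed 0.075, 0.13 and 0.17. The 2 were RPS6 and DOHH, an enzyme of hypusine synthesis, at -0.36 ± 0.17. MTOR, LARP1, EIF2AK1 and DOHH were named after their values were seen.

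Of 15 other translation factor genes, which include the elongation factor genes EEF1A2 and EEFSEC, 11 lay below 0. This is 73.3%, against 46.0% of all genes tested. Their median was -0.07, which was -0.0054 without control replicate 4 and 0.019 with scaling by library size alone. At an unadjusted p under 0.05, 1 of the 15 was lower, or 6.67% against 4.65% of all genes tested, and 0 were higher. This was EIF1B, a paralog of EIF1, with 60.9, 57.8 and 62.2 CPM with CXCL10 and 68.4, 76.0 and 77.6 CPM in controls. Its groups did not overlap, and the log2 difference was -0.30 ± 0.13 (SE, adjusted p = 0.683 by edgeR), and -0.26 without control replicate 4. The 6 termination and recycling genes had a median of 0.01, and none had an unadjusted p under 0.05. The 8 tested mitochondrial translation factors had a median of -0.02, also with none. Among 13 tested genes of the textbook TOP list outside the ribosome, most of them among the 42, the median was -0.13. Of these, 10 lay below 0, or 76.9%, against 46.0% of all genes tested. Without control replicate 4 the median was -0.06. At an unadjusted p under 0.05, 3 of the 13 were lower, or 23.1% against 4.65% of all genes tested, and 0 were higher. Without control replicate 4, 0 were lower, against 1.59% of all genes tested. Besides EEF1B2, the 3 were VIM, which encodes vimentin, with -0.37 ± 0.15, and TPT1, a translationally controlled protein gene, with -0.41 ± 0.17. Control replicate 4 was the highest library for VIM and TPT1, and without it they had -0.19 and -0.17.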

How the data were processed

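Per the labels, libraries were made with a stranded Illumina mRNA kit. Per the submitters' processing notes, Trim Galore, STAR, Subread and featureCounts were used with hg38. The deposited values are raw counts of reads per gene, from featureCounts 2.0.6 on GENCODE 30 exons, per the file headers. Pairs were not counted as 1, so a fragment can give 2 reads. No strand was set, and reads over 2 genes or mapped to several places were left out by default settings. For the other tools no version is given in the sources used.

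Computed here: edgeR 4.0.16 in R 4.3.3 with filterByExpr, TMM factors, group as the only term, all 6 libraries and a threshold of 0.05 on the adjusted p. Each standard error is the log2 fold change divided by the root of its F. CPM and RPKM use TMM-scaled totals of the tested genes, apart from the limits for a count of 0, which use all reads. On simulated counts of 16531 genes the test recovered 10 of 50 genes changed 1.5-fold and 35 of 50 changed 2-fold, and called 4 unchanged genes there. With no gene changed it called 0. The simulation held no outlying library, such as control replicate 4, and no length trend, and took each gene's spread from a fitted trend. These rates therefore need not hold for the real libraries. Alternatives used DESeq2 1.42.0, limma 3.58.1, other scalings and filters, a replicate block, a lowess length trend and each library left out. Genes and lists were chosen with earlier results of these data known. Values in every library were given for 23 genes by rule: fixed members and the lowest p in each complex. EIF3L was added after its values were seen.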

Additional observations from a re-analysis of the deposited data

How the results depend on the processing

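Of 24 genes followed in detail under 16 alternatives each, 20 kept their direction throughout and 0 passed the adjusted threshold. The median log2 fold change of the members was 0.029 with scaling by library size alone, where the median of all genes was 0.10. Left-out libraries gave -0.09 to -0.03. Scaled by library size alone, EIF2B5 and EEF1A1 had 0.070 and 0.043. With at least 1 CPM in 3 libraries EIF2B5 had 5.40e-04. With the length trend removed EIF5 and EIF4G2 had -0.0084 and -0.030. With 1 library left out, EIF5 ran from -0.081 to 0.20, EIF2B5 from -0.11 to 0.068, EIF4G2 from -0.0029 to 0.14 and EEF1A1 from -0.10 to 0.072. The ratio of EIF4G3 to EIF4G1 ran from -0.31 to 0.10 and that of EEF1A1 to EEF2 from -0.34 to 0.024. Members lower at an unadjusted p under 0.05 numbered 2 with library size alone and 2 with the length trend removed, and 1 to 11 with a library left out, and those higher 0 to 3. At the same limit in either direction, 1151 of all 16531 genes were counted with library size alone and 948 with the length trend removed. With a library left out, 626 to 2103 of 16860 to 17130 genes were counted. With no filter on low counts 137 genes were called, 0 of them a member, while all other alternatives called 0. With the replicate block 0 genes were called and 1323 had an unadjusted p under 0.05, against 1181 without it, and the members counted were 4 lower and 3 higher. Deviations of same-numbered libraries from their group means had correlations of 0.03, 0.02 and -0.05, and those of other pairs ran from -0.08 to 0.06. With 3 libraries per group and control replicate 4 apart, this cannot decide whether the numbers pair libraries. The labels do not say either. Halved counts, added after the data were seen, called 0. The cause of these shifts was not tested.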
